A study of Mus musculus with 8 samples.

Results

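Lcn2 and Havcr1 are the transcripts most often read as signs of an injured kidney tubule. They are described here with 6 further genes of injured, repairing or stressed tubule cells, namely Sox9, Clu, Cd24a, Cdkn1a, Gdf15 and Prom1. The 8 genes were taken by symbol, and 7 of them were among the 22180 genes that the arrays measured under a single gene name. Gdf15, a secreted stress hormone, was not analysed here.

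RNA of whole kidneys was hybridized to 1 array for each mouse, at an age of 2 months. There were 3 double mutants (Col4a3-/-OPN-/-), 3 single mutants (Col4a3-/-) and 2 wild types. Col4a3 encodes a chain of the collagen IV network in the glomerular basement membrane, and its loss in mice is a model of Alport syndrome. OPN is osteopontin, a secreted phosphoprotein of matrix and tubule cells. Both mutant groups lack Col4a3, and only the double mutants lack osteopontin as well. No mouse that lacks osteopontin alone is among the samples, and the strain and the sex of the mice are not given in the labels.

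Tubule cells that are damaged lose part of their transport program and switch on genes that are nearly silent in a healthy tubule. Lcn2 encodes lipocalin 2 (NGAL), a secreted protein that binds iron-loaded siderophores, and it is made both by injured tubule cells and by neutrophils. Havcr1 encodes KIM-1, a membrane receptor of the injured proximal tubule that takes up dying cells. Sox9 is a transcription factor of tubule cells in repair, and Clu encodes clusterin, an extracellular chaperone. Cd24a and Prom1 encode surface proteins used as markers of progenitor-like tubule cells, and Cdkn1a encodes p21, an inhibitor of the cell cycle and a target of p53.

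All values are log2 expression values as deposited, in which a difference of 1 is a doubling, and the values of all probe sets ran from 4.20 to 13.43. Array medians lay between 5.18 and 5.25. Xist and the Y-linked genes separated the mice by sex. Double mutants 1 and 2 and single mutants 1 and 3 were read as female, and double mutant 3, single mutant 2 and both wild types as male. The members are therefore compared with wild type with genotype alone and again with a term for sex, which assumes that males and females differ by the same amount whatever their genotype. Single mutant 2 stood apart from its group. Its correlation over the 7145 genes tested was 0.865 with single mutant 1 and 0.839 with single mutant 3, but 0.948 with the male double mutant 3. With the male wild types it was lower, at 0.800 and 0.763, where the female single mutants 1 and 3 had 0.878 to 0.926. What set this array apart was not tested. Col4a3 itself measured 6.82, 6.13 and 7.60 in the double mutants, 7.65, 7.67 and 6.60 in the single mutants, and 8.77 and 8.42 in wild type. It was lower on every mutant array than on both wild type arrays, but did not pass in double mutants (adjusted p = 0.0998 in limma) or in single mutants (adjusted p = 0.162), and with the sex term it passed in neither (adjusted p = 0.0657 in double and 0.201 in single mutants).

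The promoter sequences of 3 members are shown because these genes behaved differently on the arrays, with Lcn2 and Havcr1 high in most mutants and Cdkn1a not. Each is the 250 bases before a transcription start in RefSeq (GRCm38.p6), written 5′ to 3′ on the gene's own strand, and capitals mark the motif matches described after them.

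Lcn2 promoter: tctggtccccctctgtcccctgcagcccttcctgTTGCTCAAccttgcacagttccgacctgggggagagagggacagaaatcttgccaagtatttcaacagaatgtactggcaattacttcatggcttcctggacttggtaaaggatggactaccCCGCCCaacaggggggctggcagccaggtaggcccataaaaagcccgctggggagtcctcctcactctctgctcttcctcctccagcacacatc
Havcr1 promoter, second of 3 starts: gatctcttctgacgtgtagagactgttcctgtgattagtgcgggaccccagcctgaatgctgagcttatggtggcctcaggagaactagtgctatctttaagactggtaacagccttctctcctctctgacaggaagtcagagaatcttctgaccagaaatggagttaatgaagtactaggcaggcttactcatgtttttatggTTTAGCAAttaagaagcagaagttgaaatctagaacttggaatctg
Cdkn1a promoter, first of 2 starts: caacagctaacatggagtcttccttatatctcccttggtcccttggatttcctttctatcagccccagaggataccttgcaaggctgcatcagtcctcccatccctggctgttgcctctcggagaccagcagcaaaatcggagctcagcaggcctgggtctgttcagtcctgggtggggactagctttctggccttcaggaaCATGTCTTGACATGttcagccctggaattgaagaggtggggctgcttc

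The Lcn2 window lies at chr2:32387740-32387989 on the minus strand and holds a match to the letters of a C/EBP site (TTGCNNAA), TTGCTCAA, that begins at position -216 from the start, and a GC box (GGGCGG, here on the other strand) at -94. The Havcr1 window lies at chr11:46750261-46750510 on the plus strand and has 1 match to the C/EBP letters, on the other strand, at -46. Neither of the other windows of Havcr1 held any motif searched. The Cdkn1a window lies at chr17:29090729-29090978 on the plus strand and holds the letters of a p53 site (CATGNNNNNNCATG) at -48. The window of its second start, not shown, held GC boxes at -104 and -46 and no p53 match. Both strands were searched, and of 32851 mouse promoter windows of this length 9.56% held the C/EBP letters, 32.7% the GC box and 0.49% the p53 letters. Further motifs searched were a TATA box (TATAAA, 12.4% of windows), a CCAAT box (CCAAT, 33.8%), an AP-1 site (TGANTCA, 6.75%), a STAT site (TTCNNNGAA, 7.02%) and an NF-kB site (GGGANNNNCC, 17.6%), and none of these was found in the sequences shown. A match is a match of letters only. Prom1 had an AP-1 match in each of its 2 windows. Sox9, Clu and Cd24a have no sequence here.

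Lcn2 had the clearest difference of the members from wild type. Lcn2 (chromosome 2, 32384637 to 32387739, GRCm38.p6) measured 9.37, 9.59 and 9.88 in double mutants 1 to 3, 8.58, 9.55 and 8.05 in single mutants 1 to 3, and 5.74 and 5.96 in wild type. Every mutant kidney lay more than 2 log2 units above both wild types. The double mutants were tightly grouped at 9.61 ± 0.26 (SD, n = 3), the single mutants spread more at 8.73 ± 0.76 (SD, n = 3), and wild type averaged 5.85 ± 0.16 (SD, n = 2). The ranges of the mutants overlapped, because single mutant 2 was above double mutant 1.

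In the double mutants Lcn2 was 13.6-fold higher than in wild type, a difference of 3.76 (SE 0.39, adjusted p = 0.0217 in limma). It was 1 of 4 genes called higher in that comparison (0.056% of the 7145 tested), and the only one among the 6 members tested. With sex in the model the difference was 4.31 (SE 0.28, adjusted p = 0.00348). The call with genotype alone depended on individual arrays. The adjusted p ranged from 0.0728 to 0.274 without double mutant 1, double mutant 2, single mutant 1 or either wild type, while the difference stayed between 3.63 and 3.88 over all arrays left out.

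In the single mutants Lcn2 was 7.34-fold above wild type, by 2.87 (SE 0.39), which did not pass with genotype alone (adjusted p = 0.0662 in limma, where 1 of 7145 genes, 0.014%, was called higher). Adjustment for sex brought it past the threshold, at 3.42 (SE 0.28, adjusted p = 0.00531). It also passed with genotype alone once single mutant 2 was left out, at 2.46 (adjusted p = 0.0299), but not with the sex term and without that array, when all remaining single mutants are female and all wild types male. The double mutants exceeded the single mutants by 0.89 (95% interval 0.08 to 1.69), a difference with an unadjusted p of 0.0349 and an adjusted p of 1 in limma. With the sex term that difference was again 0.89, with an unadjusted p of 0.00365 and an adjusted p of 0.993.

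Whole kidney RNA cannot tell more cells of a kind from more RNA per cell, so the cells that carried Lcn2 were not resolved. The 12 neutrophil markers on the arrays, among them S100a8, S100a9, Ngp and Camp, were all under the level filter of 6.64. Their mean was 4.77 to 4.93 in the double mutants, 4.75 to 4.86 in the single mutants and 4.74 to 4.81 in wild type, close to the lowest values on the arrays. S100a8, an abundant neutrophil transcript, measured at most 4.87 on any array, in the double mutants, and between 4.48 and 4.58 in wild type. Of the 12 markers, 6 had a higher mean in double and 6 in single mutants than in wild type. Of all measured genes 45.5% and 46.5% did. The median difference of the list was 0.02 in double and -0.01 in single mutants. Individual markers went either way in the double mutants. Ltf measured 4.75 to 4.82 there against 4.84 in wild type, and Mpo 4.64 to 4.69 against 4.72 to 4.75 (both named after their values were seen). Csf3r, a receptor for a neutrophil growth factor, measured 5.72 to 5.85 in double mutants, 5.35 to 6.13 in single mutants and 5.32 to 5.38 in wild type, and Mmp9, a gelatinase, measured 5.24 to 5.52 in double mutants, 5.04 to 5.36 in single mutants and 4.997 to 5.19 in wild type (both named after their values were seen). The part of neutrophils in the Lcn2 difference was not tested.

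Havcr1 was high in some mutants and, in the double mutants and in wild type, varied more within the group than any other member. Havcr1 (chromosome 11, 46739822 to 46779578) measured 7.58, 10.49 and 10.76 in double mutants 1 to 3, 8.57, 9.43 and 7.23 in single mutants 1 to 3, and 4.78 and 7.92 in wild type. Wild type 2 was above double mutant 1 and single mutant 3, so the groups overlapped in every comparison. The means were 9.61 ± 1.77 (SD, n = 3) in double mutants, 8.41 ± 1.11 (SD, n = 3) in single mutants and 6.35 ± 2.22 (SD, n = 2) in wild type.

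With genotype alone Havcr1 passed in neither mutant. Its difference from wild type was 3.26 in double mutants (95% interval 0.47 to 6.04, adjusted p = 0.181 in limma) and 2.06 in single mutants (95% interval -0.73 to 4.85, adjusted p = 0.318). Adjusted for sex, the double mutants were higher, by 4.34 (SE 1.25, adjusted p = 0.0419), and the single mutants differed by 3.14 (adjusted p = 0.0946). The call in the double mutants was lost with no filter on level (adjusted p = 0.135), and leaving out wild type 1, wild type 2, double mutant 3 or any single mutant ended it too. Without wild type 2 the difference with genotype alone was as large as 4.83, and without wild type 1 it was 1.69. The mutants differed from each other by 1.20 (95% interval -1.29 to 3.69).

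**Figure D1:**
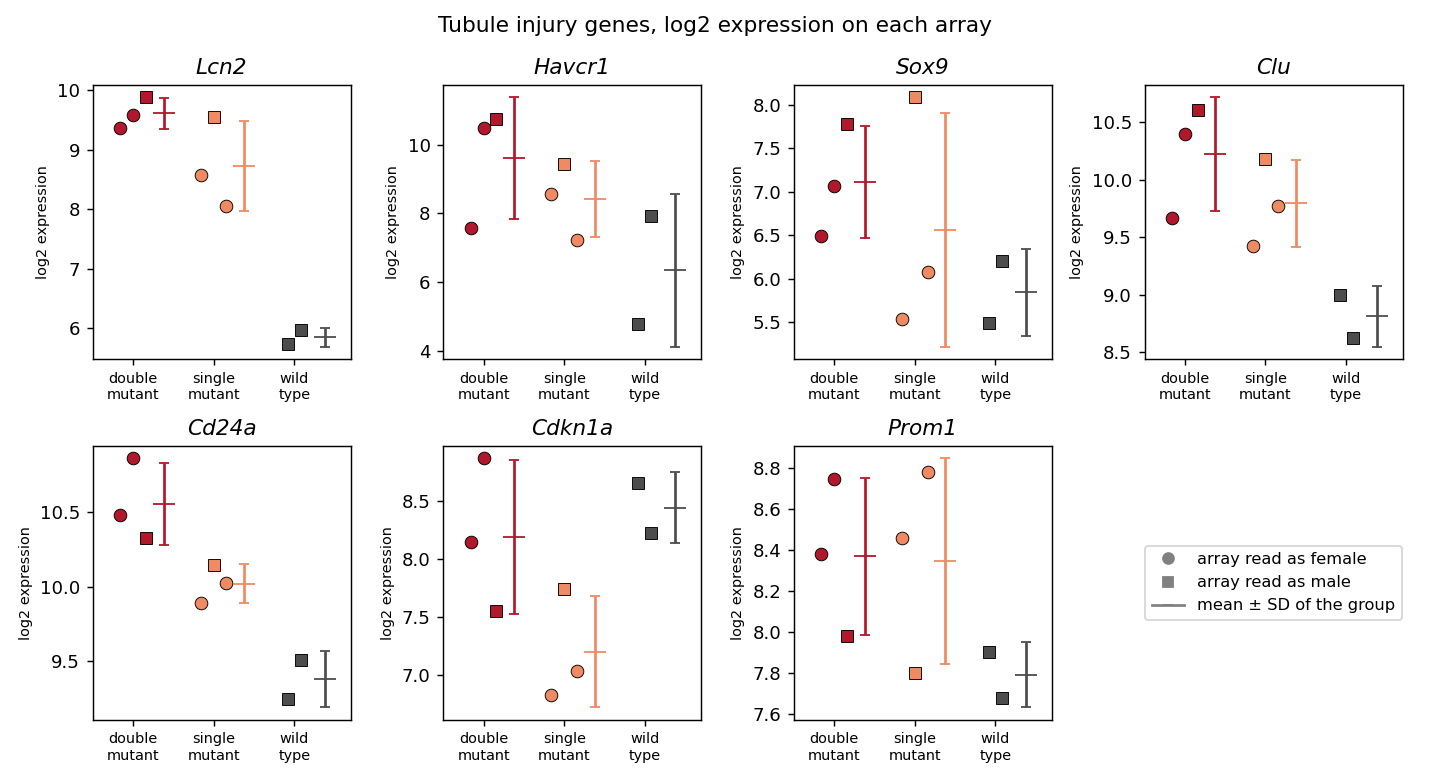
Log2 expression value of each of the 7 measured genes on each of the 8 arrays, by genotype (double mutant, single mutant, wild type, left to right), with circles for mice read as female, squares for mice read as male and a bar at the group mean. Lcn2 is above both wild types on all 6 mutant arrays, Havcr1 overlaps between all groups, and Cdkn1a is lower in the single mutants than in wild type.

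Clu, the extracellular chaperone, lay above wild type in all mutants, by less than Lcn2. Clu (chromosome 14, 65968483 to 65981548) measured 9.67, 10.40 and 10.60 in double mutants 1 to 3, 9.43, 10.18 and 9.78 in single mutants 1 to 3, and 9.0 and 8.63 in wild type. All mutants were above both wild types. With genotype alone the difference was 1.41 in double mutants (SE 0.32, adjusted p = 0.0770 in limma) and 0.98 in single mutants (SE 0.32, adjusted p = 0.142). Clu was higher in both once sex was in the model, by 1.79 (SE 0.28, adjusted p = 0.0108) in double mutants and by 1.37 (SE 0.28, adjusted p = 0.0147) in single mutants. The call in the single mutants did not hold with no filter on level (adjusted p = 0.0501) or without single mutant 2, and neither call held without wild type 2.

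Cd24a encodes a small glycosylated surface protein. Cd24a (chromosome 10, 43579169 to 43584265) measured 10.48, 10.86 and 10.33 in double mutants 1 to 3, 9.89, 10.15 and 10.02 in single mutants 1 to 3, and 9.24 and 9.51 in wild type. It was the only member whose 3 groups did not overlap, and they stood in the order double mutant, single mutant, wild type. A second probe set of the gene ran lower, at 7.55 to 8.57 in double mutants, 7.39 to 7.93 in single mutants and 6.99 to 7.26 in wild type, with the same order of group means but with the mutants overlapping.

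Cd24a in the double mutants stood 1.18 above wild type (SE 0.19, adjusted p = 0.0669 in limma) with genotype alone. Adjusted for sex, Cd24a was higher there, by 1.13 (SE 0.22, adjusted p = 0.0145), a call that did not hold without either wild type. The single mutants differed from wild type by 0.64 (adjusted p = 0.130) and, with the sex term, by 0.59 (adjusted p = 0.0792). The double mutants differed from the single mutants by 0.54 (95% interval 0.15 to 0.93), with an unadjusted p of 0.0127 and an adjusted p of 1, or 0.0124 and 0.993 with the sex term. Of the 7 members Cd24a alone kept the mutant groups apart, and 3.32% of all 22180 measured genes were higher in all double than in all single mutants.

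In Sox9 the male mutants stood highest. Sox9 (chromosome 11, 112782210 to 112787757) measured 6.50, 7.07 and 7.78 in double mutants 1 to 3, 5.54, 8.09 and 6.07 in single mutants 1 to 3, and 5.49 and 6.20 in wild type. The highest value in each mutant group was that of its male. The mean over the arrays was 6.59, just under the filter of 6.64, so Sox9 was read from the fit with no filter. There its difference from wild type was 1.27 in double mutants (SE 0.77, adjusted p = 0.531 in limma) and 0.72 in single mutants (adjusted p = 0.727). Sox9 with the sex term and no filter was higher in the double mutants, by 2.36 (SE 0.48, adjusted p = 0.0479), in a fit that called 2.08% of 22180 genes higher. Of the arrays left out in turn, only the fit without double mutant 3 kept that call. The single mutants differed by 1.81 (adjusted p = 0.0792), and without single mutant 2 and without the sex term their difference from wild type was -0.04.

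Prom1, the membrane protein prominin 1, passed neither with genotype alone nor with the sex term. Prom1 (chromosome 5, 43993621 to 44102047) measured 8.38, 8.75 and 7.98 in double mutants 1 to 3, 8.46, 7.80 and 8.78 in single mutants 1 to 3, and 7.90 and 7.68 in wild type. The double mutants were all above wild type, and the low value in each mutant group was that of its male. With genotype alone the difference from wild type was 0.58 (adjusted p = 0.316 in limma) in double mutants and 0.55 (adjusted p = 0.305) in single mutants. The sex term reduced it to 0.11 (95% interval -0.36 to 0.58) in double mutants and 0.09 (95% interval -0.38 to 0.56) in single mutants. Without both male mutants, a setting chosen after seeing the data, Prom1 was higher in the double mutants by 0.77 (adjusted p = 0.0386). That setting sets female mutants against male wild types, so sex and genotype cannot be told apart in it.

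Cdkn1a did not follow the other members. Cdkn1a (chromosome 17, 29090979 to 29100722) measured 8.15, 8.87 and 7.55 in double mutants 1 to 3, 6.83, 7.74 and 7.03 in single mutants 1 to 3, and 8.65 and 8.22 in wild type. All single mutants lay under both wild types, while the double mutants overlapped with them. Its difference from wild type was -1.24 in single mutants (SE 0.40, adjusted p = 0.144 in limma) and -0.25 in double mutants (95% interval -1.19 to 0.68, adjusted p = 0.745). Adjusted for sex, it was -1.29 in single mutants (adjusted p = 0.0815) and -0.30 in double mutants (adjusted p = 0.668). Without both male mutants Cdkn1a was lower in the single mutants, at -1.51 (adjusted p = 0.0317). This setting, chosen after seeing the data, sets female mutants against male wild types, so sex and genotype cannot be told apart. No other alternative gave that call. The double mutants differed from the single mutants by 0.99 (95% interval 0.15 to 1.82), with an unadjusted p of 0.0259 and an adjusted p of 1, or 0.0280 and 0.993 with the sex term.

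**Figure D2:**
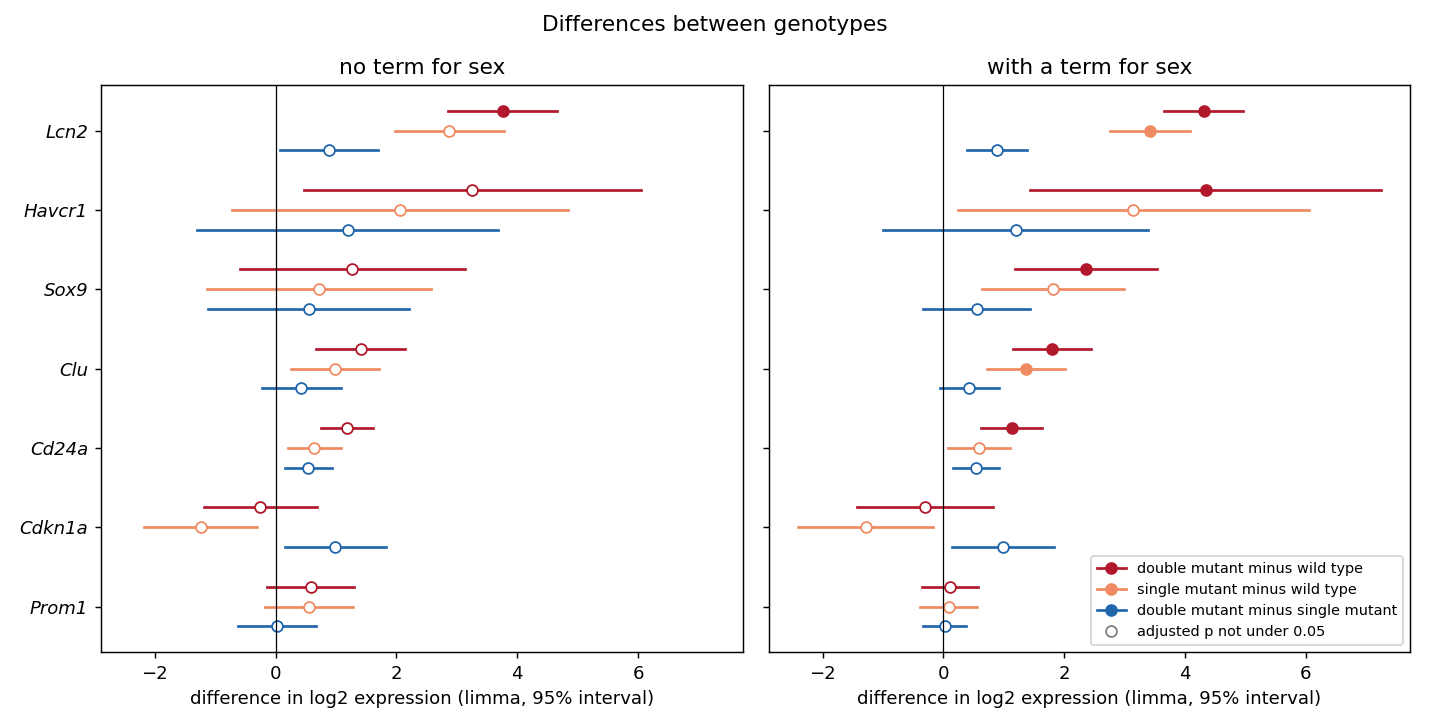
Difference of each of the 7 measured genes in log2 units with its 95% interval, for double mutant minus wild type, single mutant minus wild type and double minus single mutant, from the fit with genotype alone and the fit with a term for sex. Filled symbols passed an adjusted p of 0.05, and with genotype alone that is Lcn2 in the double mutants.

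Read as a group, the members differed from wild type mostly upwards. The median over the 7 measured members was 1.27 in the double mutants and 0.72 in the single mutants, against -0.01 for all 22180 measured genes in both comparisons. The double mutants lay wholly above wild type for 5 of 7 members, where 15% of all measured genes did so, and the single mutants for 3 of 7, where 15.5% did so. Cdkn1a was lower in all single mutants than in wild type, as were 19.2% of all measured genes. Adjusted for sex, limma called 4 of the 6 tested members higher in the double mutants (Havcr1, Lcn2, Clu and Cd24a) and 2 of 6 higher in the single mutants (Lcn2 and Clu). The same fit called 6.4% of tested genes higher in the double mutants and 7.31% in the single mutants. That was 457 genes higher and 1271 lower in double mutants, and 522 higher and 1424 lower in single mutants, around a median difference of -0.15 in both. With cyclic loess scaling the medians were -0.01 and the split was 802 higher and 776 lower in double mutants and 924 higher and 935 lower in single mutants, with 4 of 6 members called higher in double and 3 of 6 in single mutants.

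The counts with the sex term rest on few arrays. Without wild type 2 the fit called 1 of 6 members in the double mutants and 1 of 6 in the single mutants, and without wild type 1 it called 2 in each. Of all 7145 genes 37 and 25 were called higher without wild type 2, and 204 and 256 without wild type 1. Without single mutant 2 the fit called 3 members in the double mutants and 0 in the single mutants. Of all genes 321 and 0 were called higher there. No member was called between the mutants by limma, in either fit, and neither was any of the 7145 genes (0%), of which 104 had an unadjusted p under 0.05 with genotype alone and 273 with the sex term. All 7 members had a higher mean in the double than in the single mutants, as did 50.7% of all measured genes. Their median difference was 0.55, and that of Prom1 was only 0.02, with a sign that turned under other settings. The mean was also higher for 37 of the 44 measured further injury genes and 12 of the 12 macrophage markers described below.

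The difference between the mutants took other values in females than in males for several members, and no such gap passed a test. Among females, with 2 mice a group, the double mutants exceeded the single mutants in Lcn2 by 1.16, in Havcr1 by 1.13 and in Sox9 by 0.98. The 1 male double mutant exceeded the 1 male single mutant in Lcn2 by 0.33 and in Havcr1 by 1.33, and differed in Sox9 by -0.30. Cdkn1a showed the widest gap, with 1.58 in females and -0.19 in males. The test of that gap, a sex by genotype interaction over all genes, gave -1.77 for Cdkn1a (SE 0.45, unadjusted p = 0.00553, adjusted p = 0.159 in limma) and -0.84 for Lcn2 (adjusted p = 0.387). It called 0 of 7145 genes, of which 913 had an unadjusted p under 0.05. Clu differed between the mutants by nearly the same amount in both sexes, 0.43 in females and 0.42 in males.

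Among males alone, where the wild types can be compared without the sex term, the 1 double mutant exceeded the wild types by 4.03 in Lcn2, 4.41 in Havcr1, 1.94 in Sox9, 1.79 in Clu and 0.95 in Cd24a. The 1 single mutant exceeded the wild types by 3.70 in Lcn2, 3.08 in Havcr1, 2.24 in Sox9, 1.37 in Clu and 0.77 in Cd24a. Cdkn1a was below the wild types in both, by differences of -0.89 in the double and -0.70 in the single mutant. With 1 male per mutant group these differences have no replicate check.

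**Figure D3:**
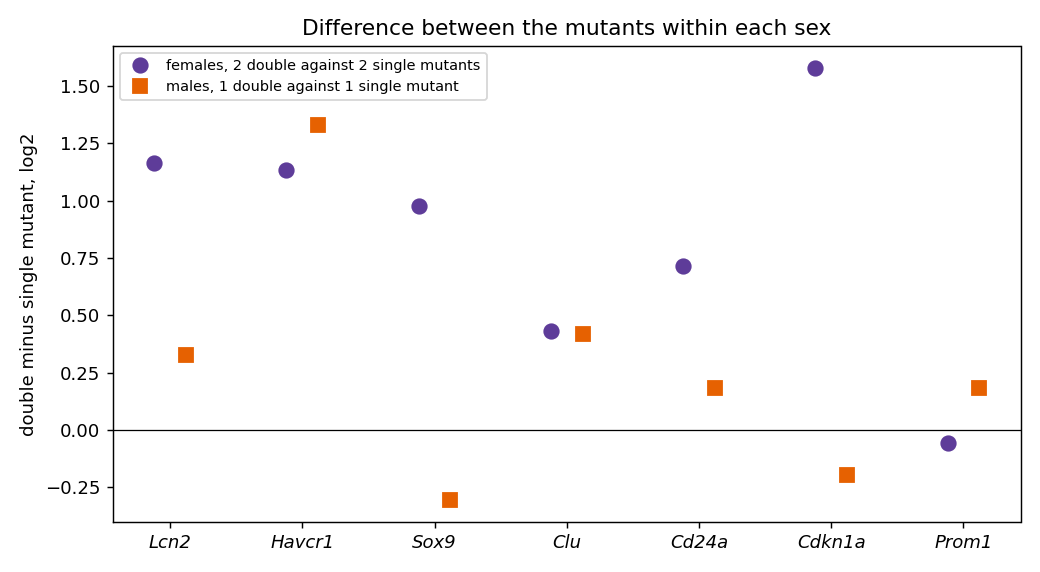
Difference between double and single mutants for each measured gene in females and in males, in log2 units. Cdkn1a differs between double and single mutants by 1.58 in females and by -0.19 in males.

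Further genes of injured and incompletely repaired tubules lay mostly above wild type. Of 47 such genes 44 were measured and 33 tested. Over those measured, 39 had a higher mean in the double mutants and 38 in the single mutants than in wild type, where 45.5% and 46.5% of all measured genes did, and the median difference was 0.88 in the double and 0.54 in the single mutants. With genotype alone limma called none, and the smallest p-values in the double mutants were those of Vcam1, an adhesion molecule, at 2.81 (adjusted p = 0.0669) and Vim, the filament protein vimentin, at 2.05 (adjusted p = 0.0686). Adjusted for sex, 20 of 33 were higher and none lower in the double mutants, where 6.4% of all tested genes were higher and 17.8% lower. The largest of these differences were 4.08 for Krt20, a keratin, 3.38 for Vcam1, 3.38 for Fgg, a fibrinogen chain, and 2.67 for S100a6. In the single mutants 14 of 33 were higher and none lower, where 7.31% of all tested genes were higher and 19.9% lower, with Vcam1 at 2.84, S100a6 at 2.47, Vim at 2.00 and Anxa3 at 1.96. With no filter on level 17 of 44 were higher in the double and 11 of 44 in the single mutants. Of all 22180 genes that fit called 462 and 455 higher. Without wild type 2 the counts were 5 of 33 in the double and 3 of 33 in the single mutants, where 37 and 25 of all 7145 genes were higher. Without wild type 1 they were 12 and 10, where 204 and 256 of all genes were higher, and without single mutant 2 they were 20 and 0, where 321 and 0 were. Without double mutant 3 the count in the double mutants was 13, where 574 of all genes were higher.

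The p53 pathway, of which Cdkn1a is the best known target, had a median near 0. Of 27 p53 targets and inhibitors of the cell cycle 24 were measured, and their median difference from wild type was 0.02 in double and 0.03 in single mutants. None passed with genotype alone. In the sex-adjusted fit 2 of 12 tested genes passed in each mutant, and both were lower, a share near the 17.8% of all tested genes that were lower in double and the 19.9% in single mutants. Ccng1, a cyclin induced by p53, differed by -0.61 in double and -0.60 in single mutants, and Perp, an adhesion protein and p53 target, by -0.47 in double and -0.49 in single mutants.

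Receptors, ligands and relatives of the members had medians near 0 as well. All 24 were measured, with a median difference of 0.04 in double and 0.02 in single mutants. None passed with genotype alone. In the sex-adjusted fit 1 of 10 tested genes was lower in double and 2 of 10 in single mutants, where 17.8% and 19.9% of all tested genes were lower. Slc22a17, which has been described as a receptor of lipocalin 2, was lower in double mutants (-0.70) and in single mutants (-0.63). Cubn, which encodes the endocytic receptor cubilin of the proximal tubule, was lower in single mutants (-1.27, adjusted p = 0.0383 in limma) and differed in double mutants by -1.12 (adjusted p = 0.0588).

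Markers of the healthy tubule and of immune cells differed alongside the members. As a check of the tissue, Umod, the defining transcript of the thick ascending limb, measured at least 12.19 in double mutants, 12.27 in single mutants and 12.33 in wild type. The loop and distal tubule list averaged 9.25 and 9.45 in the male mutants, 9.985 to 10.27 in the female mutants, and 10.10 and 10.12 in wild type. With genotype alone its median difference was -0.06 in double and 0.18 in single mutants. The collecting duct list averaged 7.27 and 7.69 in the male mutants, 7.89 to 8.31 in the female mutants, and 7.91 and 8.05 in wild type. Some of these markers were lower with the sex term, and none passed with genotype alone. With the sex term 17.8% of all tested genes were lower in double and 19.9% in single mutants. Of the loop and distal tubule list 3 of 6 tested genes were lower in each mutant, namely Egf, a growth factor, at -1.76 in double and -1.498 in single mutants, Calb1, a calcium-binding protein, at -1.59 in double and -1.38 in single mutants, and Slc12a1, the salt transporter of the thick ascending limb, at -0.67 in double and -0.44 in single mutants. Of the collecting duct list 2 of 6 were lower in double mutants, the proton pump subunit Atp6v1b1 at -0.98 and the water channel Aqp3 at -0.89, and 0 of 6 in single mutants. The 28 measured proximal tubule genes had a median difference of -0.65 in double and -0.81 in single mutants, and their mean level was 9.99 to 10.23 in double mutants, 9.39 to 10.45 in single mutants and 10.79 to 10.84 in wild type. With genotype alone 0 of 27 passed. Adjusted for sex, 16 of 27 were lower in each mutant, where 17.8% of all tested genes were lower in double and 19.9% in single mutants. The largest of these differences in double mutants were -1.92 for Slc7a8, an amino acid transporter, -1.83 for Treh, the brush-border trehalase, and -1.75 for the organic anion transporter Slc22a8. In single mutants they were -2.13 for Slc22a8, -1.998 for Slc7a7, another amino acid transporter, and -1.87 for Miox, an enzyme of inositol breakdown. With no filter on level the counts lower were 3 of 28 in double and 8 of 28 in single mutants. Of all 22180 genes that fit called 925 and 1077 lower. In the double mutants 1 of the 27 was higher, the sulfate transporter Slc13a1 at 0.68 (named after its value was seen). With cyclic loess scaling the counts lower were 9 in double and 10 in single mutants, where 776 and 935 of 7145 genes were lower. Without wild type 2 they were 1 and 2, where 33 and 41 of all genes were lower. Without single mutant 2 they were 10 and 0, where 846 and 0 were. Without wild type 1 they were 4 and 8, where 666 and 904 were.

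The 12 macrophage markers had a mean level of 7.75 to 8.10 in double mutants, 6.94 to 8.54 in single mutants and 6.09 to 6.21 in wild type. With genotype alone 0 of 8 tested markers passed. With the sex term 7 of 8 were higher in each mutant, where 6.4% of all tested genes were higher in double and 7.31% in single mutants. With no filter on level 2 of 12 were higher in each, where 462 and 455 of all 22180 genes were. Of the 8 tested, 2 were higher in each without wild type 1, where 204 and 256 of 7145 genes were. Without wild type 2 it was 1 in each, where 37 and 25 of all genes were higher. Without single mutant 2 the count in the single mutants was 0, as it was over all 7145 genes. The 10 measured T and B cell markers averaged 5.50 to 6.34 in double mutants, 5.23 to 5.52 in single mutants and 5.15 to 5.27 in wild type, and only 1 of them, the antibody chain Ighm, exceeded the level filter. The part of these cells in the differences of the members was not tested.

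The genes most like each member were found as the tested genes with the smallest root mean square distance between profiles, each centred on its mean over the 8 arrays, among 7139 candidates. For Lcn2 they were Lyz2, a lysozyme of macrophages and other myeloid cells, at 0.33, Vcam1 at 0.42 and Ctss, a lysosomal protease, at 0.45. Lyz2 ranged from 9.42 to 9.87 in double mutants, from 8.47 to 10.48 in single mutants and from 5.81 to 6.59 in wild type. The nearest other member, Clu, was at a distance of 1.004 from Lcn2. Lyz2 and Ctss are on the list of macrophage markers.

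For Havcr1 the nearest genes were more distant, with Krt20 at 0.85, Serpina10 at 0.95 and the chemokine Ccl5 at 0.998. Krt20 ranged from 6.25 to 9.14 in double mutants, from 5.36 to 7.26 in single mutants and from 4.76 to 4.83 in wild type, so it did not share the high value of Havcr1 in wild type 2. The nearest gene was Cpe for Sox9 at 0.23, Thbs1 for Clu at 0.20, Acta2 for Cd24a at 0.17, Grasp for Cdkn1a at 0.39 and Pdxk for Prom1 at 0.13. Acta2, the smooth muscle actin of vessel walls and myofibroblasts, ranged from 9.80 to 10.04 in double mutants, from 9.34 to 9.71 in single mutants and from 8.50 to 8.65 in wild type. It was higher in the double mutants by 1.34 (SE 0.15, adjusted p = 0.0346 in limma), and in the single mutants the difference was 0.95 (adjusted p = 0.0682). With the sex term it was higher in both, by 1.29 (adjusted p = 0.00841) in double and 0.91 (adjusted p = 0.0134) in single mutants. These distances describe the 8 arrays and carry no test.

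**Figure D4:**
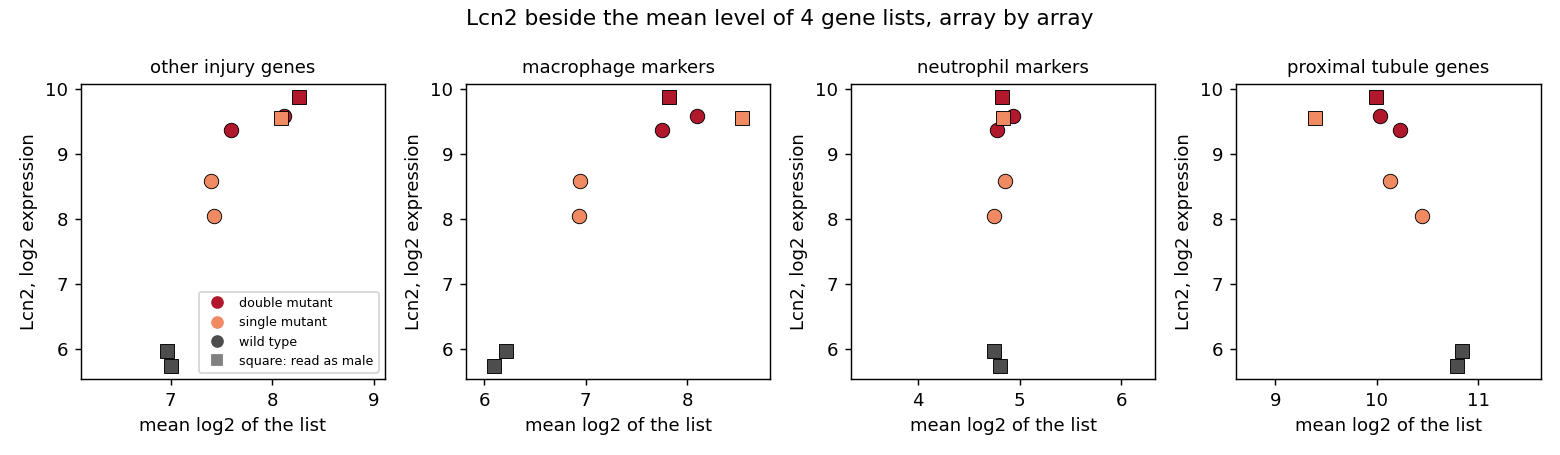
Lcn2 log2 value (vertical) on each of the 8 arrays against the mean log2 level of gene lists (horizontal) on the same arrays. Each list has its own panel, and genotype is shown by colour. Neutrophil markers average between 4.74 and 4.93 on all arrays, while Lcn2 is between 8.05 and 9.88 in the mutants and at 5.74 and 5.96 in wild type.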

How the data were processed

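The authors deposited a table of log2 values for 33793 probe sets on 8 arrays, and how they normalized it was not stated in the labels or the file. The log2 scale was read from the range of the deposited values. Per the labels, RNA was extracted with a Mirvana Paris kit and labelled with a FlashTag Biotin HSR kit, a pairing commonly used for small RNAs, while the probe sets are those of a gene array. Of these 23521 name 1 gene, 1814 several and 8458 none. A gene with several probe sets (1082 genes) took the one of highest mean.

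Genes with a mean above the 75th percentile (6.64) were tested, 7145 in all, by the lmFit and eBayes functions of limma 3.58.1 under R 4.3.3, in 1 model of 3 groups with 5 residual degrees of freedom. P-values are two-sided, the Benjamini-Hochberg adjustment ran over every tested gene, and a gene was called under 0.05. Sox9, just under the filter, was read from the fit of all 22180 genes. Sex was read from Xist and Y-linked genes, and the sex term leaves 4 degrees of freedom. The fit with genotype alone was tested on simulated data, for double mutants against wild type.

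The members, lists and tests were chosen with earlier results of these data known. All members are named, and up to 4 genes of another list and comparison, by size among those called or by p where none was. Alternatives were no filter, a filter at the 50th percentile, quantile, median and cyclic loess scaling, the mean of probe sets, a trended robust prior, 2 groups only, the replicate number as a block, and each array left out. Replicate numbers did not pair the samples. The osteopontin gene is not reported here. The number of arrays limits the precision. Plots used matplotlib 3.10.9 in Python 3.11.15, and motifs were searched as letters on both strands.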

Additional observations from a re-analysis of the deposited data

How the results depend on the processing

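The direction of Lcn2, Havcr1, Clu and Cd24a was the same under all 31 alternatives in each comparison. Lcn2 in double mutants against wild type lost its call with no filter (3.76, adjusted p = 0.0744 in limma), with quantile scaling (3.78, adjusted p = 0.0703) and with the replicate block (3.86, adjusted p = 0.0887). Over arrays left out, with and without the sex term, it ranged from 3.63 to 4.87. Lcn2 in single mutants gained a call with the sex term (3.42), also with no filter (3.42), median centring (3.38), cyclic loess (3.60) or the replicate block (3.64), and without both male mutants (2.46), and ranged from 2.46 to 3.70 over arrays left out. Havcr1 in double mutants gained a call with the sex term (4.34), also with median centring (4.27) or cyclic loess (4.52), and ranged from 1.69 to 5.91 over arrays left out.

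The signs that turned belonged to differences not called with genotype alone. Of these, Sox9 in single mutants was called with the sex term and replicate block (1.72, adjusted p = 0.0480) and with the sex term without double mutant 3 (2.24, adjusted p = 0.0386), and Prom1 in double mutants without both male mutants (0.77, adjusted p = 0.0386). Sox9 in single mutants against wild type was -0.040 without both male mutants, and ranged from -0.040 to 2.24 over arrays left out. Cdkn1a in double mutants was 0.067 without both male mutants, and ranged from -0.89 to 0.88 over arrays left out. Prom1 with the sex term and replicate block was -0.030 in double and -0.054 in single mutants against wild type, and over arrays left out it ranged from -0.050 to 0.77 in double and from -0.026 to 0.83 in single mutants. Prom1 between the mutants was -0.0025 with median centring, with or without the sex term, and -0.057 without both male mutants, and ranged from -0.25 to 0.24 over arrays left out.

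Limma called 6 of 7145 genes in double mutants against wild type. It called 10 with no filter, 16 at the 50th percentile, 3 with quantile scaling, 10 with median centring, 344 with only the groups compared and 0 with the replicate block. With the sex term it called 1728, or 1387 with no filter, 2111 with median centring, 1578 with cyclic loess and 1832 with the replicate block, and 980 without both male mutants. Over arrays left out the count ran from 0 to 590 with genotype alone and from 70 to 1635 with the sex term. With genotype alone it was 590 without single mutant 2 and 41 without double mutant 3. In single mutants 2 genes were called, 7 with no filter, 0 with only the groups compared and 0 with the replicate block. With the sex term 1946 were called, or 1532 with no filter, 2118 with median centring, 1859 with cyclic loess and 1980 with the replicate block, and 307 without both male mutants. Over arrays left out this count ran from 0 to 4 with genotype alone. With the sex term it ran from 0 to 2147, with 0 without single mutant 2 and 66 without wild type 2. Between the mutants limma called 0 genes under every alternative run, while 104 had an unadjusted p under 0.05. The cause of these changes was not tested.

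The replicate numbers were tried as a block although same-numbered mutants did not deviate together, with correlations of 0.26, -0.34 and -0.58. The settings that combine the sex term with another choice of filter, scaling or block, and the one without both male mutants, were chosen after seeing the data. With 2 wild type arrays, both male, sex and genotype can be separated only through the mutants. Without both male mutants, sex and genotype cannot be separated in the comparisons with wild type.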
